A study of Bos indicus with 6 samples.

Results

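The Notch genes described here are 4 receptors (NOTCH1, NOTCH2, NOTCH3 and NOTCH4), 4 ligands (JAG1, JAG2, DLL1 and DLL4) and 2 target genes (HES1 and HEY1). They were taken as the rows of the isthmus expression table whose gene symbol equals one of these names, which gave 10 genes of the 24616 listed, each with 1 row. The isthmus is the narrow segment of the oviduct next to the uterus, and each library came from the whole wall of the isthmus on the side of the corpus luteum (CL). The 6 libraries belong to 6 healthy, multiparous Nelore (Bos indicus) cows, with 3 cows per group and 1 library per cow, and the tissue was collected on day 4 after the GnRH injection that induced ovulation.

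The comparison addresses how the size of the ovulating follicle and of the CL that forms from it, and with them the estradiol and progesterone to which the oviduct is exposed, relate to gene expression in the isthmus. All cows were presynchronized with a prostaglandin F2α (PGF) analog and GnRH, and all received an intravaginal progesterone device with estradiol benzoate, PGF at device removal and again later, and GnRH to induce ovulation. In the LF/LCL group (large follicle and large CL; cows 617, 79 and 527) an additional PGF injection was given at device insertion, and removal of the device preceded GnRH by 42 h. In the SF/SCL group (small follicle and small CL; cows 856, 489215 and 97) this interval was 30 h and that additional PGF was not given. The sequenced cows were selected by the authors from the ends of a ranking on follicle, CL and hormone measurements. No age in years was given.

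Notch signaling passes between neighbouring cells. A ligand of the Jagged (JAG) or Delta-like (DLL) family on one cell binds a NOTCH receptor on the next, the receptor is cut by an ADAM protease and then by the γ-secretase complex, and the freed intracellular part enters the nucleus, where it binds the DNA-binding protein RBPJ and switches on genes such as those of the HES and HEY families of transcriptional repressors. In epithelia lined by ciliated and secretory cells the pathway is known for its part in the choice between those fates, and in blood vessels for arterial identity, sprouting and the maintenance of mural cells.

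Libraries held from 23899117 to 34193164 reads assigned to genes. Values are normalized counts, the reads of a gene divided by the size factor of the library, and log2 fold changes are SF/SCL over LF/LCL on log2(normalized count + 1), with negative values where LF/LCL was higher. The library of SF/SCL cow 489215 stood apart: it lay under 0.5 times the lowest of the other 5 libraries in 15.8% of the 15387 genes tested and over 2 times the highest in 3.77%. The 10 Notch genes and the pathway genes with named values are therefore also given without that cow, which leaves 2 SF/SCL libraries. These, cows 856 and 97, stood apart in some cell type markers, chosen after their values were seen. The epithelial marker OVGP1 was 271794 and 325158 in them, against 287 to 1950 in the other cows. The mesothelial marker MSLN was 17590 and 18098, against 808 to 2299. With all 6 libraries, limma with Benjamini-Hochberg adjustment called 0% of the genes tested at an adjusted p under 0.05, and 1333 genes (8.66%) had an unadjusted p under 0.05, of which 644 (4.19%) were higher in SF/SCL and 689 (4.48%) higher in LF/LCL. DESeq2 called 409 genes (2.66%) and edgeR called 0, with 1338 genes at an unadjusted p under 0.05.

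Both target genes separated the groups, in opposite directions. HES1 was higher in all 3 SF/SCL cows than in any LF/LCL cow, and HEY1 was higher in all 3 LF/LCL cows than in any SF/SCL cow, but neither passed the adjusted threshold. The 3 receptors NOTCH1, NOTCH2 and NOTCH3 were far lower in cow 489215 than in every other cow, and without that cow NOTCH2 was higher in SF/SCL. The ligands JAG1 and DLL1 lay in the same range in both groups.

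All 10 genes passed the filter on low values and were tested, and 0 of 10 had an adjusted p under 0.05 with limma, edgeR or DESeq2. Limma gave 1 gene (HES1) an unadjusted p under 0.05 (10%, near the 8.66% of all genes), and edgeR gave 2 (HES1 and HEY1), beside 1338 of 15387 over all genes. The groups did not overlap in 2 of the 10 genes. Over all genes tested the groups did not overlap in 18.1%, with SF/SCL higher in 9.51% and LF/LCL higher in 8.6%, so the share of Notch genes, 20%, was near the background. The median log2 fold change over the 10 genes was -0.47, beside -0.02 over all genes tested, and 8 of the 10 lay below 0. With the same 6 libraries the median was -0.25 under DESeq2 and -0.27 under edgeR. Without cow 489215 the median was -0.03, beside 0.00 over all genes.

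**Figure D1:**
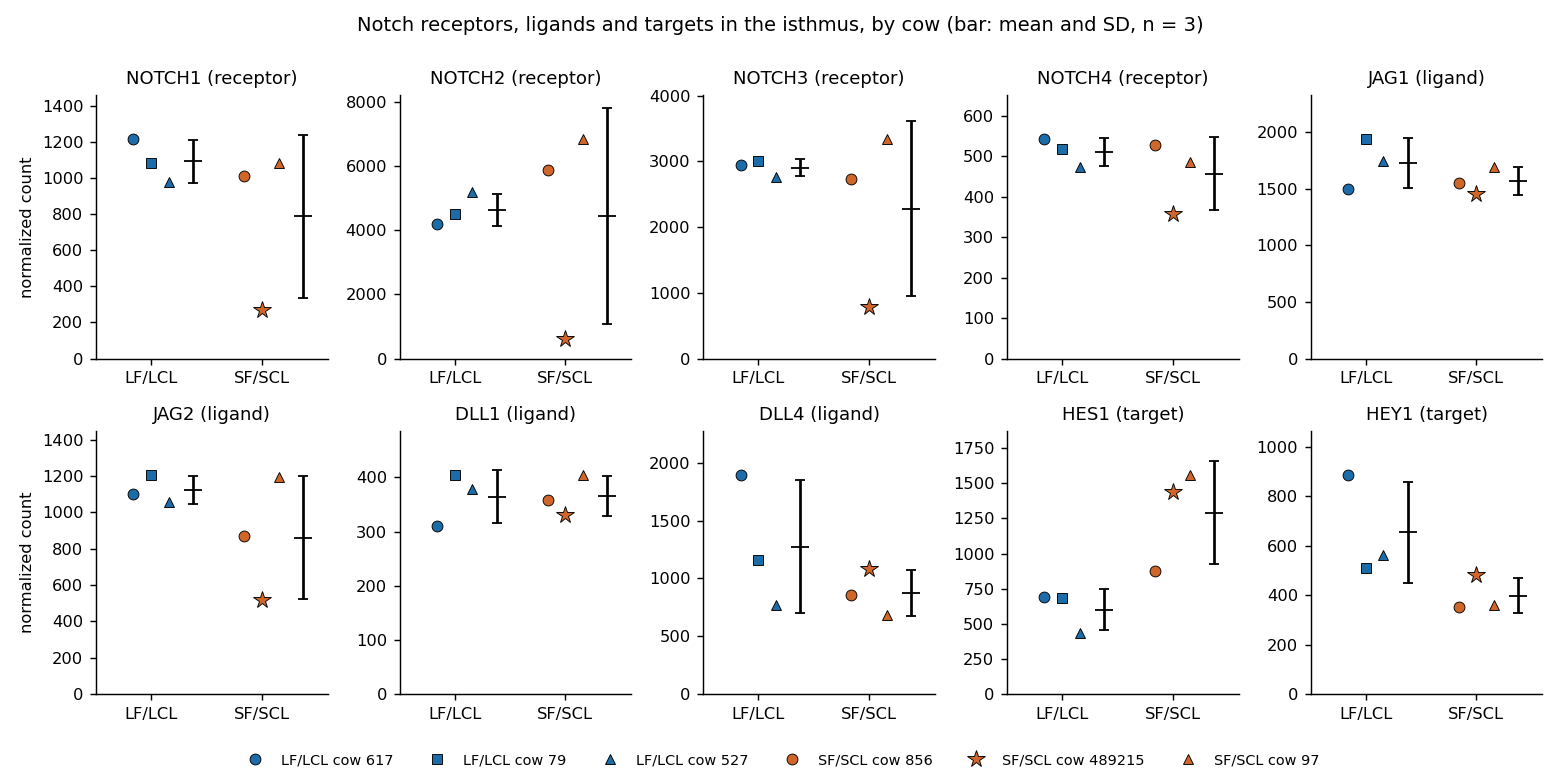
Normalized counts (vertical axes, each from 0) of the 10 Notch genes, with 1 symbol per cow, LF/LCL in blue and SF/SCL in orange, and the group mean and SD (n = 3) to the right of each group. The star, cow 489215, lies far below the other cows for NOTCH1, NOTCH2 and NOTCH3, while HES1 and HEY1 are the panels in which the orange and blue symbols do not overlap.

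HES1 is a basic helix-loop-helix repressor and the classical direct target of the cleaved receptor, and it also answers to other signals. HES1 (ENSBTAG00000000569) had normalized counts of 689, 683 and 432 in LF/LCL cows 617, 79 and 527, and of 873, 1441 and 1563 in SF/SCL cows 856, 489215 and 97. The lowest SF/SCL cow, 856, was above the highest LF/LCL cow, and cow 489215 lay with its group. The means were 601 ± 147 in LF/LCL and 1292 ± 368 in SF/SCL (SD, n = 3), a 2.15-fold difference. The log2 fold change was 1.09 (SE 0.32, 95% interval 0.33 to 1.85), with a limma unadjusted p of 0.0121 from the fit over all genes and a Benjamini-Hochberg adjusted p of 0.424. DESeq2 gave an adjusted p of 0.0610 and edgeR one of 0.401. Without cow 489215 the log2 fold change was 0.99 (95% interval 0.25 to 1.72) with a limma adjusted p of 0.0714. Under 17 alternatives the log2 fold change of HES1 ranged from 0.87 to 1.35, and the highest value came from leaving out SF/SCL cow 856.

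HEY1 is a related repressor that is known as a Notch target of the vessel wall. HEY1 (ENSBTAG00000015717) had normalized counts of 889, 512 and 563 in LF/LCL cows 617, 79 and 527, and of 352, 482 and 362 in SF/SCL cows 856, 489215 and 97. The groups did not overlap, but LF/LCL cow 79 lay close above SF/SCL cow 489215, and cow 617 stood well above the other 5. The means were 654 ± 204 and 399 ± 72.4 (SD, n = 3), 1.64-fold higher in LF/LCL. The log2 fold change was -0.69 (SE 0.29, 95% interval -1.38 to 0.01), with an adjusted p of 0.588 by limma. It was -0.44 without LF/LCL cow 617 and -0.83 without SF/SCL cow 489215, where the 95% interval was -1.42 to -0.24 and the limma adjusted p 0.0628.

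The opposite directions of these genes left the ratio of HES1 to HEY1 within a library separated as well, as follows from their separate values. It was 0.775, 1.34 and 0.768 in the LF/LCL cows 617, 79 and 527, and 2.48, 2.99 and 4.32 in the SF/SCL cows 856, 489215 and 97. The ratio does not depend on the size factor of a library. Ratios were chosen after the values had been seen and are given as descriptions, with no test.

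Part of the markers of the oviductal epithelium were also higher in SF/SCL. In bulk tissue more cells of a type and more RNA per cell cannot be told apart. Of 8 tested markers of secretory and general epithelium, 5 (EPCAM, KRT7, KRT8, KRT18 and SOX17) had a limma unadjusted p under 0.05 and all 5 were higher in SF/SCL, as were 3 of 9 tested ciliated markers. These shares were 62.5% and 33.3%, against 8.66% of all genes tested (4.19% higher in SF/SCL). Among the other secretory markers, MSX1 (-1.38) and CLDN4 (-0.07) had negative log2 fold changes and PAX8 (0.81) a positive one, all with overlapping groups. The ciliated markers FOXJ1 and DNAH9 had their lowest value of all in SF/SCL cow 489215. Without cow 489215, limma called 8 of 9 ciliated markers higher in SF/SCL (88.9%), and 3 of 8 secretory markers higher and 1 (MSX1) lower (50%). Over all genes that fit called 18.2%, with 10.3% higher in SF/SCL and 7.92% higher in LF/LCL. The summed normalized count of the ciliated list was 36338 to 47786 in LF/LCL and 45634 to 69177 in SF/SCL, with PIFO at 0 in every library. That of the secretory list was 27069 to 36354 in LF/LCL and 55683 to 373689 in SF/SCL, where OVGP1, the oviductal glycoprotein, made up most of the sum in cows 856 and 97. In SF/SCL cow 489215 OVGP1 was 730, below LF/LCL cows 79 (1782) and 527 (1950). Set against the epithelial adhesion gene EPCAM, the ratio of HES1 was 0.0561, 0.0688 and 0.0507 in LF/LCL and 0.0550, 0.0709 and 0.0829 in SF/SCL, in the same order of cows, and the groups overlapped. Its ratio to the keratin gene KRT8 overlapped too, from 0.0692 to 0.104 in LF/LCL and from 0.0762 to 0.131 in SF/SCL. The part of the epithelial share of the tissue in the HES1 difference was not tested.

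Part of the vascular markers were, like HEY1, higher in LF/LCL. Of 9 tested endothelial markers, 1 (CDH5, the cadherin of endothelial junctions) had a limma unadjusted p under 0.05 and was higher in LF/LCL, as were 3 of 8 pericyte markers (RGS5, PDGFRB and ABCC9). These shares, 11.1% and 37.5%, stand beside 8.66% of all genes tested (4.48% higher in LF/LCL), so the endothelial share was near the background. The groups overlapped in every endothelial marker but CDH5, and 8 of the 9 log2 fold changes were below 0. Without cow 489215, limma called 4 of 9 endothelial (44.4%) and 4 of 8 pericyte markers (50%), all higher in LF/LCL. That fit called 18.2% of all genes, 7.92% of them higher in LF/LCL as a share of all genes. The summed normalized count of the endothelial list was 12248 to 15102 in LF/LCL and 8835 to 16283 in SF/SCL, with the highest value in cow 489215, and that of the pericyte list was 17303 to 18840 and 9881 to 17905. No endothelial or pericyte marker with a row was at 0 in all libraries. The ratio of HEY1 to CDH5 was 0.794, 0.447 and 0.528 in LF/LCL and 0.496, 1.14 and 0.488 in SF/SCL, and that to the endothelial receptor gene TIE1 ran from 0.516 to 1.13 and from 0.519 to 0.676, so that both ratios overlapped. The part of the vascular share of the tissue in the HEY1 difference was not tested.

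The receptors NOTCH1, NOTCH2 and NOTCH3 are large single-pass proteins, of which NOTCH3 is known from smooth muscle cells and pericytes of vessels and NOTCH1 and NOTCH2 from many cell types. NOTCH2 (ENSBTAG00000007909) had normalized counts of 4197, 4511 and 5192 in LF/LCL cows 617, 79 and 527, and of 5887, 596 and 6836 in SF/SCL cows 856, 489215 and 97. Cow 489215 was at 11.2% of the mean of the other 5 cows, while the other SF/SCL cows were both above every LF/LCL cow. The means were 4633 ± 509 and 4440 ± 3362 (SD, n = 3), and the log2 fold change was -0.68 (SE 0.91, 95% interval -2.85 to 1.50, limma adjusted p 0.892). With the same 6 libraries it was -0.057 under DESeq2 and -0.076 under edgeR. Without cow 489215 it was 0.46 in limma (95% interval 0.16 to 0.75), with an adjusted p of 0.0481 by limma, 0.0523 by edgeR and 0.0138 by DESeq2 with Benjamini-Hochberg adjustment. NOTCH2 was thus the only one of the 10 genes that limma called without that cow, in a fit that called 2827 of 15495 genes (18.2%), of which 1600 (10.3%) were higher in SF/SCL and 1227 (7.92%) higher in LF/LCL.

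NOTCH1 (ENSBTAG00000022799) had normalized counts of 1215, 1084 and 978 in LF/LCL cows 617, 79 and 527, and of 1010, 268 and 1085 in SF/SCL cows 856, 489215 and 97. The SF/SCL cows other than 489215 lay within the LF/LCL range. The log2 fold change was -0.71 (SE 0.54, 95% interval -2.02 to 0.60) with all libraries and -0.06 (95% interval -0.35 to 0.24) without cow 489215, with limma adjusted p of 0.815 and 0.790. DESeq2 with all libraries gave -0.47 for NOTCH1.

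NOTCH3 (ENSBTAG00000043971) had normalized counts of 2943, 3006 and 2763 in LF/LCL and of 2734, 778 and 3339 in SF/SCL, in the same order of cows. Its pattern was that of NOTCH1, with cow 489215 alone far below the rest. The log2 fold change was -0.59 (SE 0.54, 95% interval -1.88 to 0.69) and, without cow 489215, 0.06 (95% interval -0.21 to 0.33), with limma adjusted p of 0.845 and 0.755. DESeq2 with all libraries gave -0.34 for NOTCH3. The summed normalized count of 8 smooth muscle markers was 728721 to 847464 in LF/LCL and 339479 to 1227276 in SF/SCL, and the highest value was that of cow 489215, the library in which NOTCH3 was lowest. The sum of the pericyte list in cow 489215, 17905, was likewise the highest of the SF/SCL group, and MCAM made up 12864 of it. Single markers differed. PDGFRB (28.2% of the mean of the other cows), ABCC9 (36.3%), RGS5 (78.7%) and CSPG4 (79.8%) were lower in cow 489215. KCNJ8, NDUFA4L2, HIGD1B and MCAM were above that mean. Among the smooth muscle markers, SYNPO2 (43.4%) and MYH11 (84.3%) lay below the mean of the other cows and the rest above it.

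NOTCH4, a receptor known mainly from endothelium, lay nearer to the other libraries in cow 489215. NOTCH4 (ENSBTAG00000025424) had normalized counts of 542, 517 and 474 in LF/LCL cows 617, 79 and 527, and of 528, 357 and 487 in SF/SCL cows 856, 489215 and 97. Cow 489215 was lowest again, at 70.0% of the mean of the other 5, against 24.9% for NOTCH1 and 26.3% for NOTCH3. The log2 fold change was -0.18 (SE 0.23, 95% interval -0.74 to 0.38), with an adjusted p of 0.892 by limma, and -0.01 (95% interval -0.32 to 0.30) without cow 489215.

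**Figure D2:**
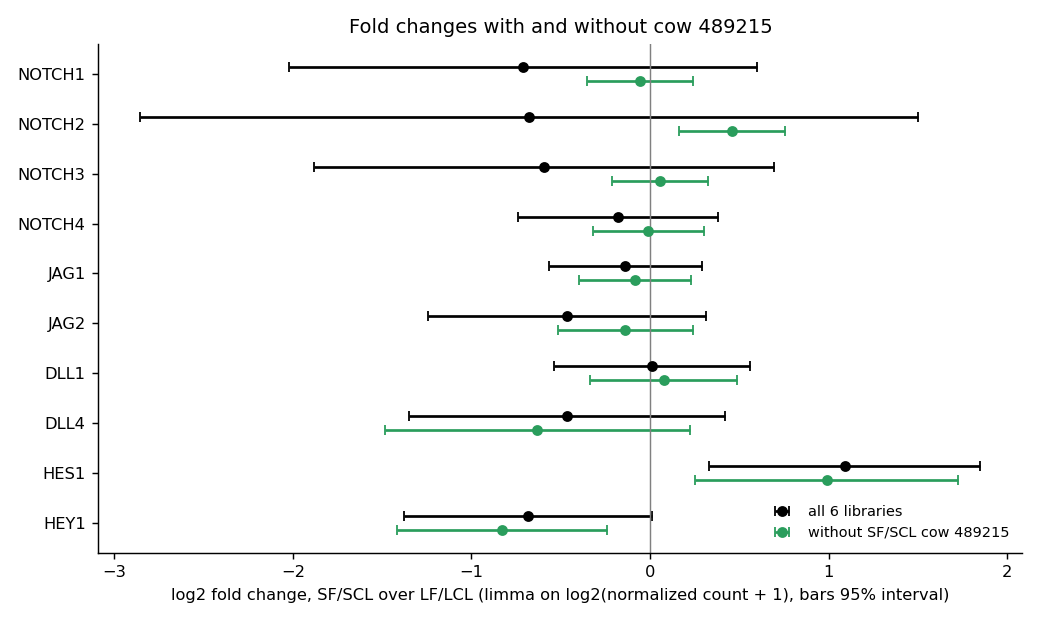
Log2 fold change of SF/SCL over LF/LCL (horizontal axis, limma on log2(normalized count + 1)) with its 95% interval for each Notch gene, with all 6 libraries in black and without SF/SCL cow 489215 in green. Leaving out the cow narrows the intervals of NOTCH1, NOTCH2 and NOTCH3 and moves NOTCH2 from -0.68 to 0.46, while HES1 moves from 1.09 to 0.99.

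Of the 10 Notch genes, 3 (NOTCH1, NOTCH2 and NOTCH3) lay in cow 489215 under 0.5 times the lowest of the other 5 libraries (30%, against 15.8% of all genes). Over 2 times the highest lay 0, against 3.77% of all genes. The summed normalized count of the 4 receptors was 8898, 9119 and 9408 in LF/LCL cows 617, 79 and 527, and 10159, 1998 and 11747 in SF/SCL cows 856, 489215 and 97. The receptors therefore had together the lowest and the highest values within the SF/SCL group. The group means of the sum were 9141 ± 256 and 7968 ± 5231 (SD, n = 3), and the SF/SCL mean was 10953 without cow 489215.

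The make-up of the receptor reads within a library does not depend on the size factor. NOTCH2 held 47.2%, 49.5% and 55.2% of the receptor counts in LF/LCL cows 617, 79 and 527, and 57.9%, 29.8% and 58.2% in SF/SCL cows 856, 489215 and 97. NOTCH3 held 33.1%, 33.0% and 29.4% in LF/LCL and 26.9%, 38.9% and 28.4% in SF/SCL. In cows 856 and 97 the NOTCH2 share was above and the NOTCH3 share below every LF/LCL cow, and in cow 489215 the reverse held for both. The NOTCH4 share was 4.14% to 6.09% in 5 cows and 17.9% in cow 489215. Since reads per gene rise with transcript length, these shares compare a receptor between libraries and not the receptors with each other.

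**Figure D3:**
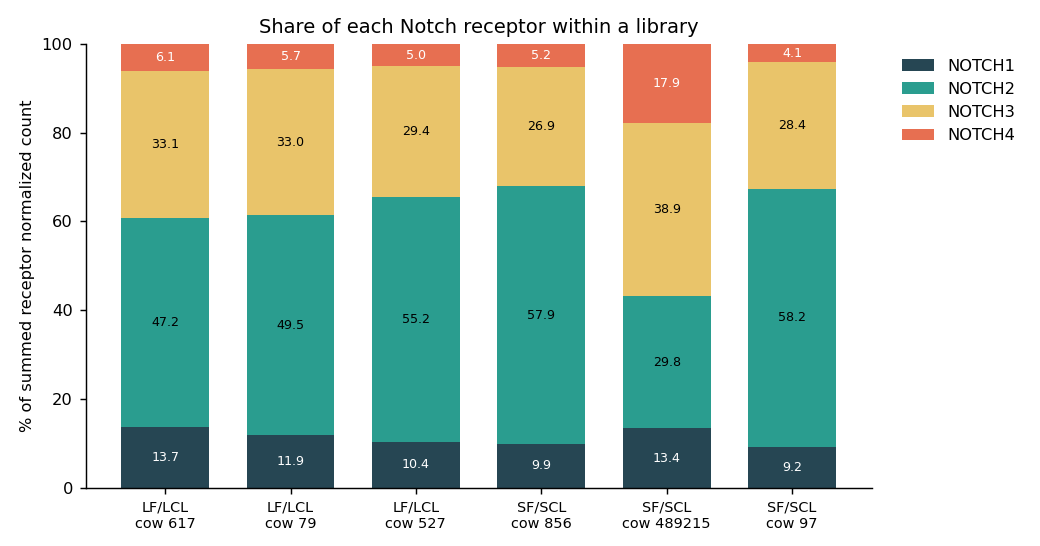
Percentage of the summed normalized count of the 4 Notch receptors held by each receptor (vertical axis), with 1 bar per cow. Cow 489215 has the smallest NOTCH2 share (29.8%) and the largest NOTCH4 share (17.9%).

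None of the 4 ligands lay under 0.5 times the lowest of the other libraries in cow 489215. JAG1 (ENSBTAG00000012817), a ligand of epithelia and vessel walls, had normalized counts of 1502, 1938 and 1748 in LF/LCL cows 617, 79 and 527, and of 1551, 1453 and 1696 in SF/SCL cows 856, 489215 and 97. The groups overlapped, with means of 1729 ± 219 and 1567 ± 123 (SD, n = 3) and a log2 fold change of -0.14 (SE 0.18, 95% interval -0.57 to 0.29, limma adjusted p 0.891). Without cow 489215 the log2 fold change was -0.08 (95% interval -0.40 to 0.23).

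JAG2 (ENSBTAG00000007319), the second Jagged ligand, had normalized counts of 1102, 1207 and 1058 in LF/LCL and of 867, 517 and 1194 in SF/SCL, in the same order of cows. Cow 489215 was lowest, at 47.6% of the mean of the other 5, and cow 97 lay near the top of the LF/LCL range. The log2 fold change was -0.46 (SE 0.32, 95% interval -1.24 to 0.31, limma adjusted p 0.783) and -0.14 without cow 489215.

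DLL1 (ENSBTAG00000031476), a Delta-like ligand, showed the smallest difference of the 10 genes with all 6 libraries. It had normalized counts of 310, 405 and 379 in LF/LCL and of 359, 332 and 405 in SF/SCL, in the same order of cows. The group means were 364 ± 49.0 and 365 ± 37.3 (SD, n = 3), with a log2 fold change of 0.01 (SE 0.23, 95% interval -0.54 to 0.56, limma adjusted p 0.994) and, without cow 489215, of 0.08 (95% interval -0.34 to 0.49).

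DLL4 (ENSBTAG00000010361), the Delta-like ligand of sprouting and arterial endothelium, had normalized counts of 1899, 1158 and 768 in LF/LCL cows 617, 79 and 527, and of 861, 1082 and 687 in SF/SCL cows 856, 489215 and 97. Cow 617 was highest, as it was for HEY1, and cow 489215 lay near the mean of the other 5. The means were 1275 ± 574 and 877 ± 198 (SD, n = 3), and the log2 fold change was -0.47 (SE 0.37, 95% interval -1.35 to 0.42, limma adjusted p 0.821). It was -0.13 without LF/LCL cow 617, -0.78 without LF/LCL cow 527 and -0.63 (95% interval -1.48 to 0.22) without SF/SCL cow 489215, so its size depended on which cow was left out. The summed normalized count of the 4 ligands was 4813, 4708 and 3952 in LF/LCL and 3638, 3383 and 3983 in SF/SCL, and the groups overlapped by cow 97 alone.

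The rest of the pathway was read from a list of 72 genes in 8 roles, of which 69 had a row and 64 were tested. In the test over all genes 0 of 64 passed the adjusted limma threshold. DESeq2 called 2 of the 64 (CTBP2 and APH1A, both higher in SF/SCL), beside 2.66% of all genes, so its calls were near the background. Limma gave 8 genes an unadjusted p under 0.05 (12.5%, against 8.66% of all genes), 3 higher in SF/SCL and 5 higher in LF/LCL. The groups did not overlap in 18 of 64 (28.1%, against 18.1% of all genes), 7 with SF/SCL higher and 11 with LF/LCL higher. The median log2 fold change of the list was -0.24 in limma, beside -0.02 over all genes tested. It was much smaller in size under DESeq2 and edgeR with the same 6 libraries, as given further below. In cow 489215, 19 of 64 (29.7%, against 15.8% of all genes) lay under 0.5 times the lowest of the other cows, among them, named here after their values were seen, the DNA-binding partner RBPJ, the coactivators MAML1, MAML3 and EP300 and the ligand-activating ubiquitin ligase MIB1, and 1, the γ-secretase subunit PSENEN, lay over 2 times the highest.

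Among the genes of receptor cleavage, log2 fold changes of both signs were found within a protein complex. FURIN, the convertase that cuts the receptor precursor, had means of 3180 ± 315 in LF/LCL and 1809 ± 760 in SF/SCL (SD, n = 3), a log2 fold change of -0.92. ADAM10, the protease of the ligand-induced cut, had means of 3034 ± 190 and 1919 ± 667, a log2 fold change of -0.73. Both were lower in all 3 SF/SCL cows, with the lowest value in cow 489215, and without that cow the log2 fold changes were -0.50 and -0.40. APH1A, a γ-secretase subunit, was higher in all 3 SF/SCL cows, with means of 2176 ± 82.4 and 3144 ± 166 and a log2 fold change of 0.53, or 0.49 without cow 489215. The 8 pathway genes with an unadjusted p under 0.05 had limma adjusted p from 0.405 to 0.573 with Benjamini-Hochberg adjustment.

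Corepressors and genes of receptor turnover also split by gene. CTBP2, a corepressor recruited by many repressors, had means of 3584 ± 330 in LF/LCL and 5382 ± 304 in SF/SCL (log2 fold change 0.59, or 0.56 without cow 489215). TLE2, of the Groucho family on which HES proteins rely, had means of 669 ± 127 and 370 ± 135 (log2 fold change -0.90, or -1.18 without cow 489215). The Deltex genes, which act on the receptor inside the cell, included DTX1, with means of 598 ± 72.8 and 350 ± 110 (log2 fold change -0.81, or -1.05 without cow 489215), and DTX3, with means of 1663 ± 184 and 2260 ± 238 (log2 fold change 0.44 with or without cow 489215). NCOR1, the corepressor with the most reads, had a log2 fold change of -0.02 with all libraries and 0.29 without cow 489215 (limma adjusted p 0.0603). In other roles, the genes with the most reads had log2 fold changes of -0.42 (MFAP5, a microfibril protein), -0.09 (MIB2, a ubiquitin ligase), -0.25 (LFNG, a glycosyltransferase of the receptor), 0.15 (SNW1, of the nuclear complex) and 0.15 (ITCH, a ubiquitin ligase). Without cow 489215 the values were -0.53 for MFAP5, 0.26 for MIB2, -0.46 for LFNG, 0.03 for SNW1 and -0.01 for ITCH, so that MIB2 and ITCH turned sign, and limma called 0 of these 5 genes.

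The list of other HES and HEY family and target genes had log2 fold changes of both signs, from -1.28 (HES6) to 0.71 (HEY2). HES6, named here after its values were seen, ran from 18.4 to 574 between cows and was not tested without cow 489215. Of 8 tested genes of this list, 1 (NRIP2) had a limma unadjusted p under 0.05 (12.5%, against 8.66% of all genes). NRIP2 had means of 79.6 ± 15.6 in LF/LCL and 38.5 ± 13.2 in SF/SCL (SD, n = 3). Its log2 fold change was -1.07, or -0.77 without cow 489215 (limma adjusted p 0.132). HEYL, a HEY relative with the most reads among them, had normalized counts of 1350, 2021 and 1650 in LF/LCL cows 617, 79 and 527, and of 937, 1732 and 377 in SF/SCL cows 856, 489215 and 97. Cow 489215 lay with the LF/LCL cows, and the log2 fold change was -0.96 with all libraries and -1.47 without that cow, where the limma adjusted p was 0.0411. HEY2, named here after its values were seen, went the other way, with normalized counts of 277, 236 and 241 in LF/LCL and 397, 254 and 689 in SF/SCL. With all libraries HEY2 had a log2 fold change of 0.71, and of 1.06 without cow 489215 (limma adjusted p 0.0344). HES3 and HES5 had at most 3 reads in any library and were not tested.

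**Figure D4:**
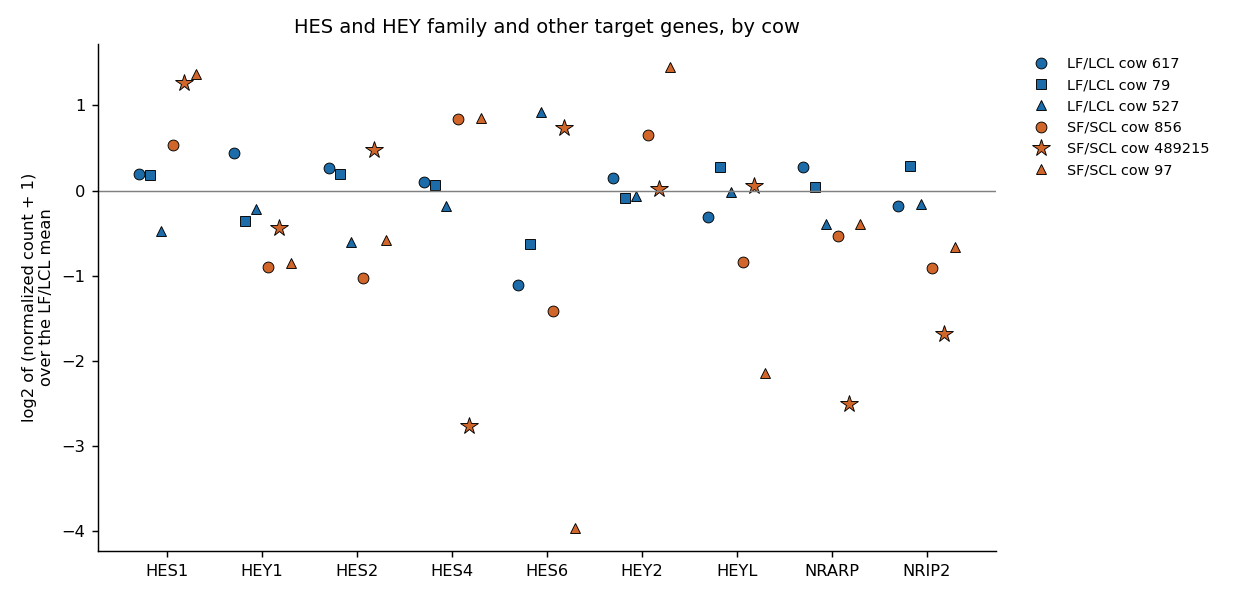
Log2 of (normalized count + 1) over the LF/LCL mean (vertical axis) for HES1, HEY1 and the other HES and HEY family and target genes with a mean normalized count of at least 20, with 1 symbol per cow, LF/LCL in blue and SF/SCL in orange. HES1 is the gene in which all orange symbols lie above all blue ones, and HEY1 and NRIP2 are those in which they lie below.

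Without cow 489215, limma called 20 of 65 pathway genes tested (30.8%, against 18.2% of all genes), 11 higher in SF/SCL and 9 higher in LF/LCL, and the median log2 fold change was 0.08. FURIN, ADAM10, TLE2 and DTX1 were called lower in SF/SCL and CTBP2 and APH1A higher, with limma adjusted p of 0.0252, 0.0324, 0.0119, 0.00979, 0.0191 and 0.0135. By role, limma called 5 of 12 corepressors, 5 of 12 genes of turnover and inhibition, 4 of 9 of receptor cleavage, 2 of 7 other targets, 2 of 6 ligand-like genes, 1 of 9 of the nuclear complex, 1 of 5 of ligand trafficking and 0 of 5 of receptor glycosylation. In that last role 0 of 5 had an unadjusted p under 0.05 with all 6 libraries.

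**Figure D5:**
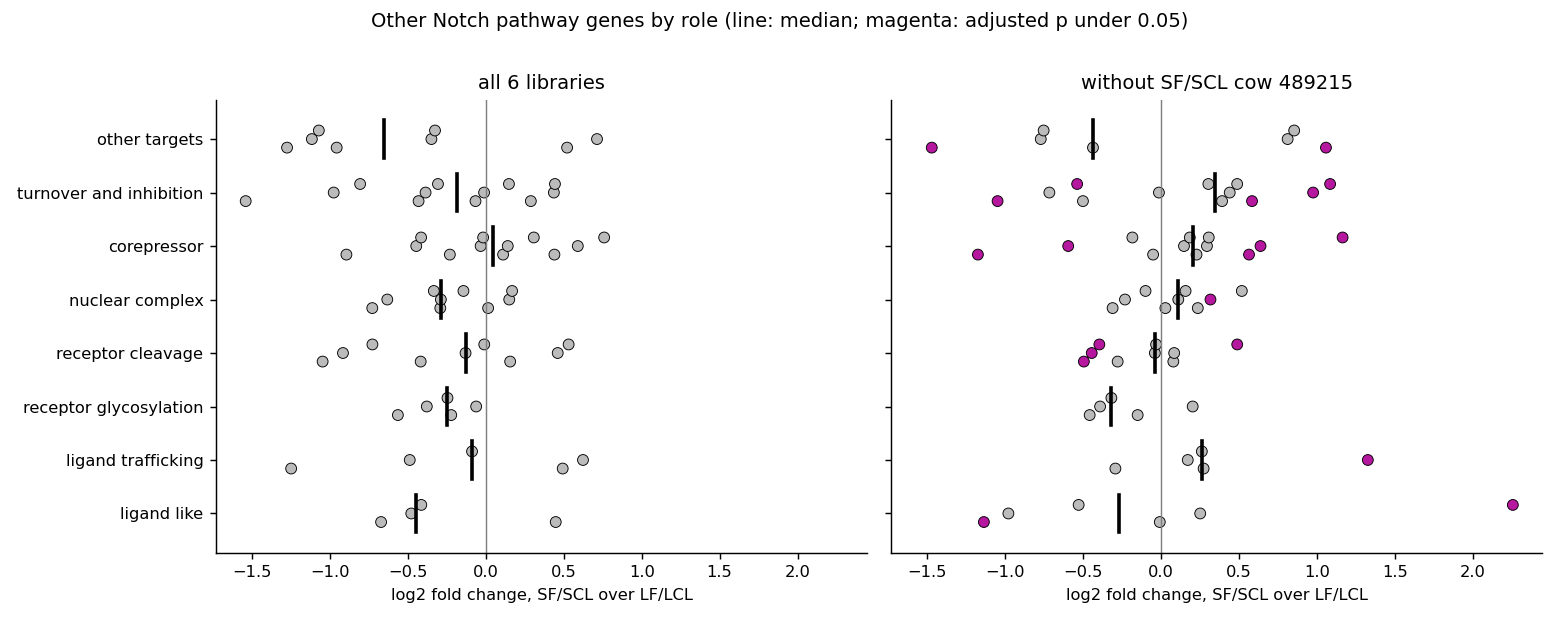
Log2 fold change of SF/SCL over LF/LCL (horizontal axes) of the other Notch pathway genes, by role, with all 6 libraries on the left and without SF/SCL cow 489215 on the right. Each point is a gene, the vertical lines are medians, and magenta marks a limma adjusted p under 0.05, which 0 genes reach on the left and 20 on the right.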

How the data were processed

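RNA-seq values of 6 isthmus libraries were used. Polyadenylated RNA was sequenced in paired ends, and the authors aligned filtered reads to the masked UMD 3.1 bovine genome with TopHat 2.0.8 and Bowtie2 2.1.0, counted unique reads per Ensembl gene with HTSeq 0.5.4p2 (strand setting not given in the sources used here, so antisense reads may be included) and divided counts by DESeq 1.12.1 size factors. The deposited values are this signal. In all, 100% of values gave whole reads (within 0.1 read). A gene was kept if its mean over the libraries exceeded both 5 and its own SD, and kept genes were tested with limma 3.58.1 (trend and robust) in R 4.3.3 on log2(value + 1), two-sided, with Benjamini-Hochberg adjustment over 15387 genes and a threshold of 0.05. Alternatives on recovered reads were edgeR 4.0.16 (quasi-likelihood) and DESeq2 1.42.0. Intervals are 95% intervals of the limma fit. Each cow is an independent replicate.

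The Notch genes and the gene lists were chosen with earlier results of these data known. All 10 Notch genes were named. Pathway genes were named where called, or, with fewer than 5 called, where the unadjusted p was under 0.05 and the groups did not overlap, together with the gene of most reads in each role, of which 1 is not reported here. Further pathway genes are named in the text as chosen after their values were seen. Markers of endothelium, smooth muscle, pericytes, ciliated and secretory epithelium, fibroblasts, mesothelium, leukocytes, nerve, erythrocytes and immediate early genes were summed per library. No sequences, positions or transcript lengths of UMD 3.1 were used here, so levels were not compared between genes.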

Additional observations from a re-analysis of the deposited data

How the results depend on the processing

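Without cow 489215, DESeq2 called 3 of the 10 Notch genes (NOTCH2, HES1 and HEY1), 3922 genes in all and 26 of the pathway list, and edgeR called 2768 genes and 19 of the list; these 2 fits were added after seeing the data. Under array weights (0.0477 for cow 489215) limma called 2 Notch genes (HES1 and HEY1), 4581 genes in all and 29 of the list. DESeq2 with all libraries called 409 genes and 2 of the list. With each cow left out in turn, limma called 0 to 1 Notch genes, 0 to 2827 genes in all and 0 to 20 of the list, the highest numbers each without cow 489215.
The median log2 fold change of the Notch genes was -0.041 under DESeq2 and -0.037 under edgeR without cow 489215, -0.043 with array weights, and -0.55 to -0.033 with each cow left out. That of the pathway list was -0.052 under DESeq2, -0.051 under edgeR with DESeq2 size factors, -0.078 under edgeR with TMM, 0.071 under DESeq2 and 0.074 under edgeR without cow 489215, 0.045 with array weights, and -0.24 to 0.078 with each cow left out.
Signs turned for DLL1, to -0.022 under edgeR with TMM and -0.019 under limma after TMM rescaling, and, with each cow left out, it ran from -0.10 (without LF/LCL cow 617; -0.07 without SF/SCL cow 97) to 0.088. NOTCH2 turned to 0.45 under DESeq2 and 0.46 under edgeR without cow 489215 and 0.50 with array weights, and ran from -1.30 to 0.46 with each cow left out. NOTCH3 turned to 0.058 and 0.063 without cow 489215 and 0.11 with array weights, and ran from -0.99 to 0.058. Of 170 values of single Notch genes under alternatives, 154 kept their direction and side of the threshold, and the cause of the other changes was not tested beyond the weight or removal of the cow itself.
With each cow left out, the difference of a receptor share (SF/SCL minus LF/LCL) ran from -2.39 to -0.29 percentage points for NOTCH1, -6.71 to 7.46 for NOTCH2, -4.14 to 1.86 for NOTCH3 and -0.93 to 5.92 for NOTCH4.
No paired analysis was possible because the groups share no cow and no replicate number. The comparison per length was not run, since no transcript lengths were used here.
With 3 cows per group, p-values cover the spread between these cows alone. The Notch values rested on 201 to 7750 reads a library.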

Other observations

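Further lists beside the Notch genes are given as values, with no test of a link. Of 10 tested fibroblast markers, 5 had a limma unadjusted p under 0.05 (50%, against 8.66% of all genes) and all 5 were higher in LF/LCL. The summed normalized count was 141979 to 178786 in LF/LCL and 93132 to 180847 in SF/SCL. Of 12 immediate early genes, 1 (DUSP1) had a limma unadjusted p under 0.05 (8.33%, near the 8.66% of all genes) and was higher in SF/SCL. The sums were 14654 to 20294 in LF/LCL and 16222 to 30991 in SF/SCL. Leukocyte markers summed to 5442 to 6886 and 4786 to 8680, nerve markers to 7708 to 11635 and 13768 to 38575, and erythrocyte markers to 7.03 to 12.2 and 9.87 to 25.3. The erythrocyte sums rested on very few reads, with 4 to 14 a library for AHSP and at most 4 for any other row. The mesothelial list summed to 2958 to 3434 in LF/LCL and 3559 to 28237 in SF/SCL, a sum made up mainly of MSLN and WT1, while its members LRRN4 (means of 290 and 8.46) and BNC1 (79.8 and 19.7) were higher in all 3 LF/LCL cows. BNC1 was the only one of the list that was tested with all 6 libraries (log2 fold change -1.97).

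The ratio of NOTCH4 to CDH5 was 0.485, 0.452 and 0.445 in LF/LCL cows 617, 79 and 527 and 0.744, 0.845 and 0.655 in SF/SCL cows 856, 489215 and 97, without overlap, and CDH5 itself was lower in all SF/SCL cows. The ratio of NOTCH4 to TIE1 overlapped, from 0.522 to 0.691 in LF/LCL and from 0.384 to 0.909 in SF/SCL. The ratio of DLL4 to CDH5 overlapped as well, from 0.721 to 1.70 in LF/LCL and from 0.926 to 2.56 in SF/SCL, as did that of NOTCH3 to the smooth muscle myosin gene MYH11, from 0.0145 to 0.0218 and from 0.00667 to 0.0331.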
